A study of Mus musculus with 12 samples.

Results

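The genes examined belong to the actin and tubulin families: Actb, Actg1, Tuba1a, Tuba1b, Tuba4a, Tubb2a, Tubb2b, Tubb3, Tubb4a and Tubb5. They are 10 of 21887 protein-coding genes on mouse chromosomes 1 to 19, X and Y and were taken from a given list. The list was chosen by family with the peaks of these data known, and partly for the width of the learning peak at Actg1. The data are lists of peaks from chromatin immunoprecipitation and sequencing (ChIP-seq) of dorsal hippocampus with an antibody against crotonylated lysine of any protein (pan-Kcr). One library came from C57BL/6J mice that had been trained in spatial object recognition, a task in which mice learn object positions (learning), and 1 from C57BL/6J mice left in the home cage (homecage). The training schedule and harvest time of the ChIP mice, their age and sex, and whether tissue was pooled are not given in the sources used here. Neither ChIP group is stated to have received crotonate. Input libraries and the single-nucleus libraries of crotonate- and saline-treated mice were not used here. With 1 library per condition there is no replicate check, so no p-value is given and each statement describes these 2 peak lists.

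Actin monomers assemble into the filaments that shape dendritic spines, and α- and β-tubulin form heterodimers that assemble into the microtubules of dendrites and axons. Neurons rebuild spine actin when synapses change, and actin and tubulin mRNAs are abundant in brain. Crotonylation is an acylation of lysine, and on histones it is known from the starts of active genes and from enhancers. The pan-Kcr antibody does not tell one histone position or protein from another. Actb and Actg1 encode the cytoplasmic β- and γ-actins, and several members have near-identical relatives in the genome, including pseudogenes. How reads that fit several copies were handled is not given in the sources used here, so peaks inside these genes are uncertain in their assignment to 1 copy.

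A peak was assigned to a gene when it overlapped, by at least 1 bp, the RefSeq gene body extended by 5 kb on either side. The learning list held 6 such peaks at 4 of the 10 genes (Actb, Actg1, Tubb2a and Tubb2b). For comparison, 30.9% of all protein-coding genes had a learning peak in the same window, and 21.9% of the 4936 genes whose length fell in the members' range of 2809 to 10463 bp. The homecage list held 28 peaks and all 10 genes had at least 1, against 90.5% of all protein-coding genes and 87.7% of those of similar length. Within the gene body alone the counts of genes were again 4 and 10, where the learning shares were 24.8% of all genes and 13.6% of those of similar length, and the homecage shares 76.9% and 65.6%. The homecage list is far longer, with 331236 peaks on these chromosomes against 16002 in the learning list, and the read depth of both is unknown. Both actins had a learning peak, as did 2 of the 5 β-tubulins, while none of the 3 α-tubulins did. A homecage peak overlapped 4 of the 6 learning peaks, as it did 43.1% of the whole learning list. Counted by genes, 4 of 10 members had such a shared peak, as did 18.4% of all protein-coding genes and 14.6% of those of similar length. The 2 unshared learning peaks both lay beside Tubb2b, and 18.1% of protein-coding genes had an unshared one. At least 3 homecage peaks were found at 6 of the 10 genes, against 67.0% of all protein-coding genes and 45.2% of those of similar length. Since the list of genes was chosen with these peaks known, the counts are descriptive.

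**Figure D1:**
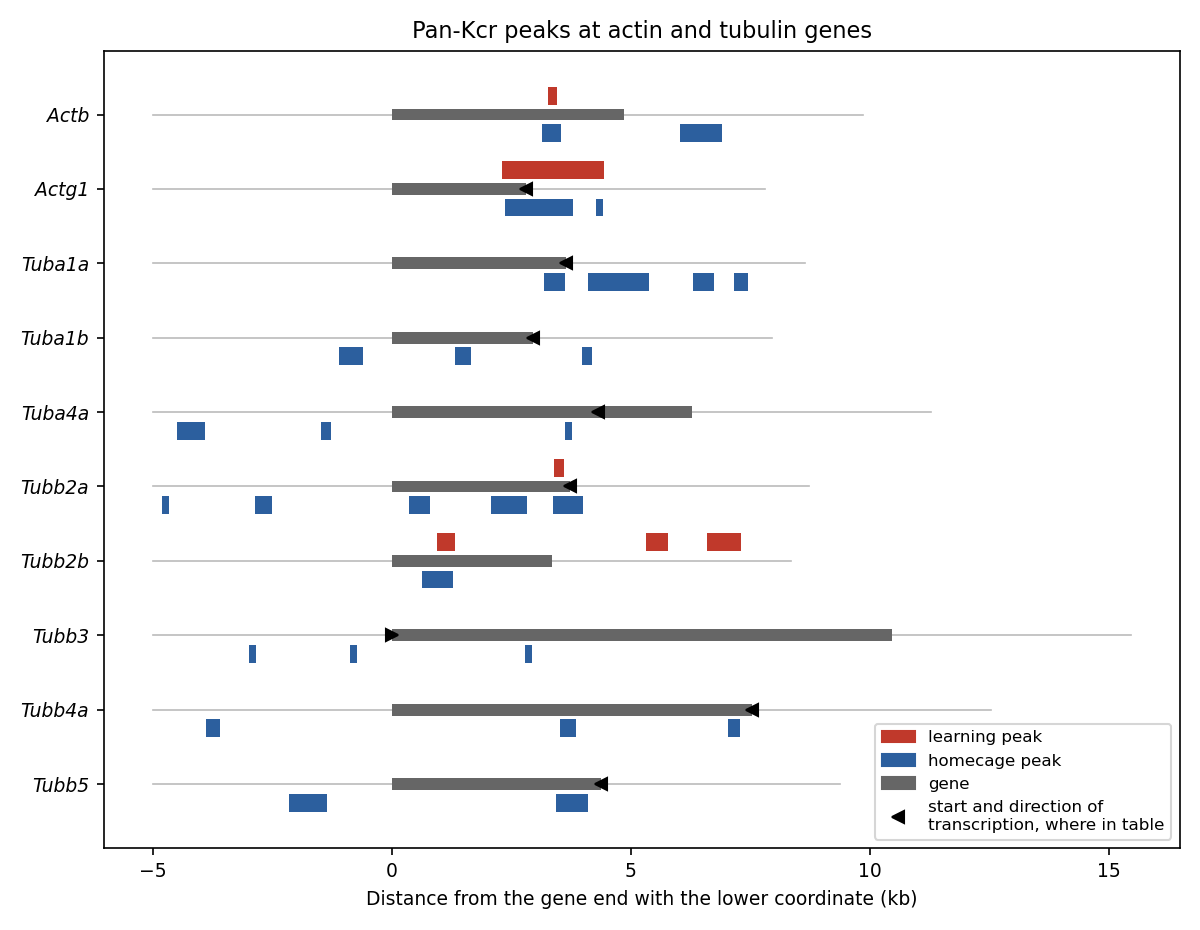
Learning peaks (red) and homecage peaks (blue) at the 10 genes, drawn to scale as distance in kb from the gene end with the lower coordinate. Grey lines are the windows of the gene and 5 kb on either side, and arrowheads are the starts listed in the promoter table, absent for Actb and Tubb2b. Learning peaks are seen at 4 genes and homecage peaks at all 10.

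The transcription starts of 8 of the 10 genes were found in the RefSeq promoter table (GRCm38.p6), and those of Actb and Tubb2b were not matched. The 250 bases before the start are shown for Actg1 and Tubb2a, whose starts lay inside a peak, and for Tuba1a, whose start lay in a gap between homecage peaks. Each is written 5′ to 3′ on the gene's strand, which is the minus strand for the 3 genes. Capitals mark matches to 5 motifs: the E-box CACGTG, the CCAAT box, the CArG box, the cyclic AMP response element (CRE) TGACGTCA and the TATA core TATAA. The Actg1 stretch is chr11:120348496-120348745, the Tubb2a stretch chr13:34078009-34078258 and the Tuba1a stretch chr15:98953502-98953751.
Actg1: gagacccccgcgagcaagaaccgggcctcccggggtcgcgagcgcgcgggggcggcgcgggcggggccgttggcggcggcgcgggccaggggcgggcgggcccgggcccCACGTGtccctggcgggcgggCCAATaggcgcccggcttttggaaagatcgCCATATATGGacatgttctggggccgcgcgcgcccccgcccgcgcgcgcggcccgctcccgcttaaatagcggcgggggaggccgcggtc
Tubb2a: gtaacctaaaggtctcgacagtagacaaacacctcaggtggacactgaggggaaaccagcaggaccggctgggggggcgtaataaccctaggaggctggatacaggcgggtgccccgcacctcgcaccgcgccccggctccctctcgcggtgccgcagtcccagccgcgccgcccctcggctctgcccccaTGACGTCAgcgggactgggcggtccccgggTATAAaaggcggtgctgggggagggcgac
Tuba1a: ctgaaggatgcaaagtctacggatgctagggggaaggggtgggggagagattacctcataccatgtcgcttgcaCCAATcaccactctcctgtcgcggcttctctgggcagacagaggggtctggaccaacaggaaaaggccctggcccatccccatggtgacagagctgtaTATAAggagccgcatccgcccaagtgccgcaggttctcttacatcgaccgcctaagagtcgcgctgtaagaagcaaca

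In Actg1, the CArG box, the sequence bound by serum response factor, was matched by CCATATATGG at 90 to 81 bases before the start. The same promoter held an E-box 141 to 136 bases and a CCAAT box 120 to 116 bases before the start. In Tubb2a, a CRE lay 59 to 52 bases and a TATA core 29 to 25 bases before the start, and in Tuba1a a CCAAT box lay 176 to 172 and a TATA core 78 to 74 bases before it. The CArG box was found at 1 of the 8 member starts and at 1.47% of the 32851 starts in the table, and the CRE at 1 of 8 and 1.55%. The E-box was found at 2 of 8 (6.02% of all starts), the TATA core at 3 of 8 (5255 of the 32851 starts) and the CCAAT box at 4 of 8 (33.8%). The GC box GGGCGG, left in lower case, was found at 6 of 8 (32.7%) and 6 times in Actg1, where 2 of the matches shared bases. Motifs were searched on both strands except the TATA core, which was read on the gene's strand. GC content of the 250 bases was 79.2% in Actg1, 68.4% in Tubb2a and 56.8% in Tuba1a, against a median of 52.4% over all starts. It was above this median at 7 of the 8 member starts and below it at Tubb5 (49.2%). The number of CG dinucleotides was above the median of 6 at all 8 member starts, from 10 at Tubb5 to 43 at Actg1. These matches describe the letters only, and nothing was measured on factor binding.

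Actg1 carried the widest learning peak of the group, 2125 bp at chr11:120348000-120350124. In the whole list, 11 of 16002 learning peaks had at least this width, and 7 protein-coding genes (0.032%) had such a peak in their window. The width was among the values that chose the genes. The peak ran from 495 bp inside the gene to 1629 bp upstream of its start, so that 76.7% of it lay upstream. There it overlapped the long noncoding RNA gene 0610009L18Rik. The same stretch held, among homecage peaks, a peak of 1430 bp (chr11:120348051-120349480) and a second of 157 bp (chr11:120349954-120350110). Both homecage peaks lay entirely inside the learning peak. The homecage peaks were separated by 473 bp, and 538 bp of the learning peak had no homecage peak over it. The whole of the 250 bases printed for Actg1 lay inside the learning peak and inside the wider homecage peak. Just outside the 5 kb border, 5080 bp from Actg1, lay a further learning peak of 353 bp. It was the nearest one left out of any window, and the farthest one kept was the 719 bp peak 3245 bp from Tubb2b.

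Actb, the other cytoplasmic actin gene, differed in scale. Its learning peak was 204 bp wide (chr5:142906379-142906582), narrower than the list's median of 306 bp, and lay inside the gene body. A homecage peak of 406 bp (chr5:142906252-142906657) covered it completely. A second homecage peak of 876 bp (chr5:142909147-142910022) lay 1171 bp beyond the higher end of the gene and had no learning partner. Without a matched start for Actb, neither peak can be placed relative to its promoter here.

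**Figure D2:**
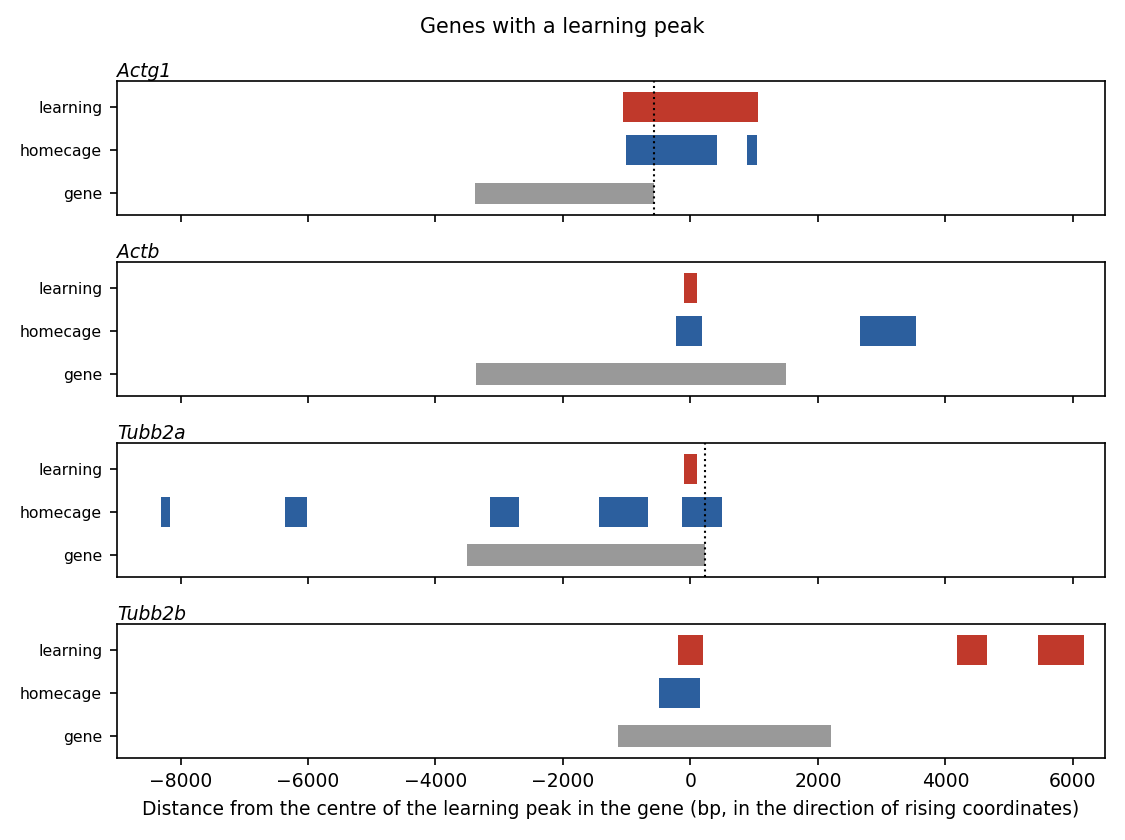
Peaks and gene bodies at the 4 genes with a learning peak, as distance in bp from the centre of the learning peak that lies in or across the gene. Dotted lines are starts, shown for Actg1 and Tubb2a. At Actg1 the learning peak (2125 bp) extends over both homecage peaks (1430 and 157 bp), and at Tubb2b 2 of 3 learning peaks have no homecage peak beneath them.

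Tubb2a and Tubb2b are neighbouring β-tubulin genes of neurons, 48999 bp apart on chromosome 13. At Tubb2a the learning peak was 207 bp wide (chr13:34077682-34077888) and lay 120 to 326 bp downstream of the start. It was contained in a homecage peak of 632 bp (chr13:34077651-34078282) that reached from 274 bp upstream to 357 bp downstream of the start. The promoter bases printed for Tubb2a, with the CRE, were therefore inside a homecage peak and outside the learning peak. Further homecage peaks, of 147, 339, 443 and 761 bp, lay in the gene or beyond its lower end, 2 of them within the neighbouring gene Bphl. The 147 bp peak, 4658 bp from the gene, was the farthest homecage peak kept by the 5 kb window of any member. The nearest one left out lay 5608 bp from Tubb4a and was 225 bp wide. Tubb2a had 5 homecage peaks in all, the most of the 10 genes.

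Tubb2b showed the reverse balance in the 5 kb window, with 3 learning peaks and 1 homecage peak. In the gene body alone each list had 1 peak, so this balance rests on learning peaks outside the gene. The learning peak in the gene was 387 bp wide (chr13:34127950-34128336) and shared 339 bp with a homecage peak of 639 bp (chr13:34127650-34128288). The other two learning peaks lay 1967 and 3245 bp beyond the higher end of the gene, within the long noncoding RNA gene Gm36500. They were 470 bp (chr13:34132321-34132790) and 719 bp wide (chr13:34133599-34134317), and the nearest homecage peaks were 4033 and 4136 bp away. The 719 bp peak was wider than 94.5% of the learning list. More learning than homecage peaks in the window was seen at 74 protein-coding genes (0.338%), and at 0.608% of those of similar length. At least 3 learning peaks were seen at 3.49% of all protein-coding genes and 0.871% of those of that length. Between Tubb2a and Tubb2b there were 10 homecage peaks and no learning peak.

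At the 4 places where the lists overlapped, the widths differed in both directions. The learning peak was wider than its homecage partner at Actg1 only, at 1.49 times the width of the larger partner. Its width was 0.502 times that of the partner at Actb, 0.606 times at Tubb2b and 0.328 times at Tubb2a. Across the whole list, 6898 learning peaks had a homecage partner, and 1798 of them (26.1%) were wider than every partner. Width depends on depth and on the caller's joining of nearby regions, neither of which is known for these lists.

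**Figure D3:**
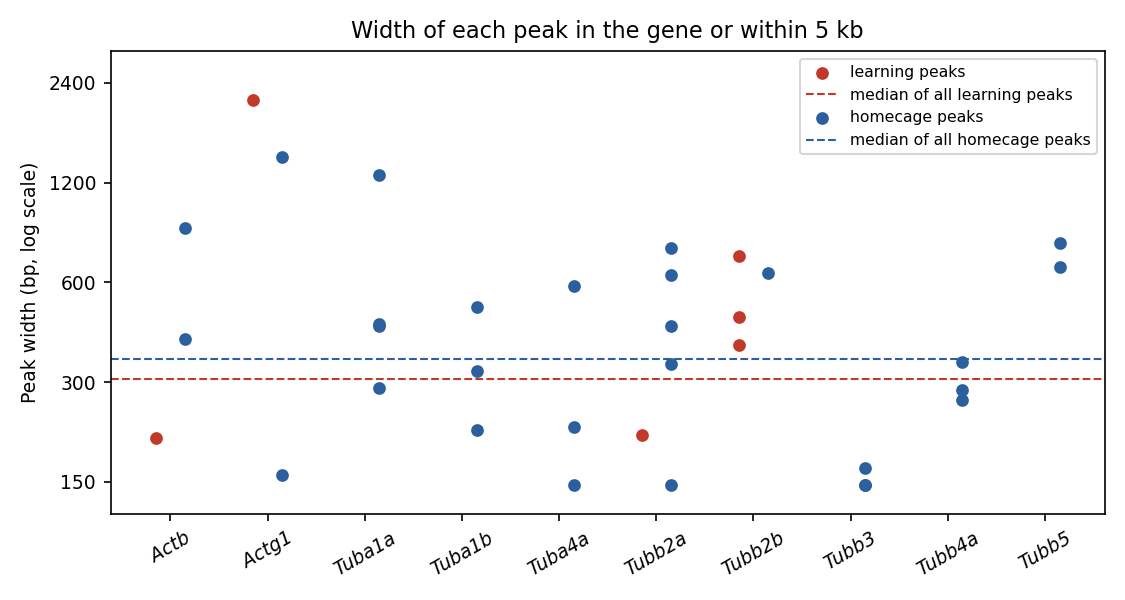
Width in bp (log axis) of every peak in each gene or within 5 kb, with 1 point per peak. Dashed lines are the medians of the whole lists, 306 bp for learning and 351 bp for homecage. The Actg1 learning peak of 2125 bp is the widest point, and the 3 homecage peaks at Tubb3 are all below the homecage median.

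The 3 α-tubulin genes had homecage peaks and no learning peak in the window. At Tuba1a, the main α-tubulin of differentiating neurons, the 4 homecage peaks were 450, 1262, 442 and 287 bp wide. The first (chr15:98953025-98953474) lay 27 to 476 bp downstream of the start and the second (chr15:98953962-98955223) 461 to 1722 bp upstream. The 487 bp between them held the start and all of the promoter bases printed for Tuba1a. The 1262 bp peak was wider than 98.8% of the homecage list, and 9.29% of protein-coding genes had a homecage peak of at least this width in their window. The remaining 2 peaks lay further upstream, in the long noncoding RNA gene B430209F14Rik. At Tuba1b, a broadly expressed α-tubulin, peaks of 505, 324 and 215 bp lay beyond the lower end, in the gene and upstream. All 3 overlapped the long noncoding RNA gene Gm41396. None came closer than 1020 bp to the start, the largest such distance among the 8 genes with a start. Tuba4a, an α-tubulin whose gene lacks the final tyrosine codon of its relatives, had peaks of 585, 220 and 147 bp. The 585 bp peak overlapped Glb1l and Stk16 and the 220 bp peak overlapped Stk16. Only the 147 bp peak, the smallest width in the homecage list, lay in Tuba4a, 551 to 697 bp downstream of the listed start.

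Tubb3, Tubb4a and Tubb5 likewise had homecage peaks only. Tubb3 encodes the neuronal class III β-tubulin that is widely used as a neuron marker, and its 3 homecage peaks were among the narrowest, at 165, 147 and 147 bp. One lay inside the gene and the others upstream, overlapping Mc1r. Tubb4a, a β-tubulin prominent in oligodendrocytes, had peaks of 283, 344 and 265 bp, and the last lay 244 to 508 bp downstream of its start (chr17:57087092-57087356). The 283 bp peak overlapped the neighbour Dennd1c. Tubb5, a widely expressed β-tubulin, had a 668 bp peak 270 to 937 bp downstream of its start (chr17:35837364-35838031) and a 790 bp peak in the neighbour Flot1. The tissue was not sorted, so a mark in few cells and a weak mark in many cannot be told apart.

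The 6 genes without a learning peak lay at different distances from the nearest one. The distance was 12990 bp from Tubb5, 14725 bp from Tuba4a, 20311 bp from Tubb4a, 20824 bp from Tubb3, 31584 bp from Tuba1a and 50695 bp from Tuba1b. The nearest peak to Tuba1a and Tuba1b was the same one. Their median was 20567.5 bp, and that of all 15128 protein-coding genes without a learning peak in the window was 66704.5 bp (59120 bp for those of similar length). With genes that have a learning peak counted in, the median was 13857.5 bp for the 10 members, 31224 bp for all protein-coding genes and 36189.5 bp for those of similar length.

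Peaks at starts were counted in nested windows, so a wider window cannot have a lower count. The counts are therefore compared only with the share of all protein-coding genes in the same window. Within 1 kb on either side of the start, 7 of the 8 genes had a homecage peak, all except Tuba1b, against 50.6% of the 21263 starts of protein-coding genes. Over the start itself the count was 2 of 8 (Actg1 and Tubb2a), against 13.5%. In the stretch from 250 bp before to 50 bp after the start it was 3 of 8, with Tuba1a added, against 19.9%. In the learning list, 2 of 8 had a peak within 1 kb (Actg1 and Tubb2a), against 16.1%, and 1 of 8 (Actg1) over the start, against 3.39%, and the same 1 of 8 in the stretch just named, against 5.21%. At 4 genes, namely Tuba1a, Tubb4a, Tubb5 and Tuba4a, the closest homecage peak began 27 to 551 bp downstream of the start.

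Counted in bases, learning peaks covered 16.6% of the Actg1 window and homecage peaks 12.4%. These values were 11.8% and 4.79% at Tubb2b, 1.51% and 16.9% at Tubb2a, and 1.37% and 8.63% at Actb. Actg1 and Tubb2b were thus the genes with more learning than homecage coverage, a balance found at 0.886% of protein-coding genes and 1.8% of those of similar length. Among genes with no learning peak, homecage coverage ran from 2.24% at Tubb3 to 17.9% at Tuba1a. Over all protein-coding genes mean coverage was 0.437% by learning and 5.97% by homecage peaks. For genes of similar length the means were 0.63% and 6.56%. The 10 members averaged 3.13% and 9.20%, and 1.63% and 8.84% without Actg1, whose peak width was among the values that chose the genes. The learning mean without Actg1 rested mainly on Tubb2b (11.8%), since Tubb2a and Actb had 1.51% and 1.37% and the other 6 had none. The median learning coverage of the 10 members was 0%, as it was for all protein-coding genes and for those of similar length.

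**Figure D4:**
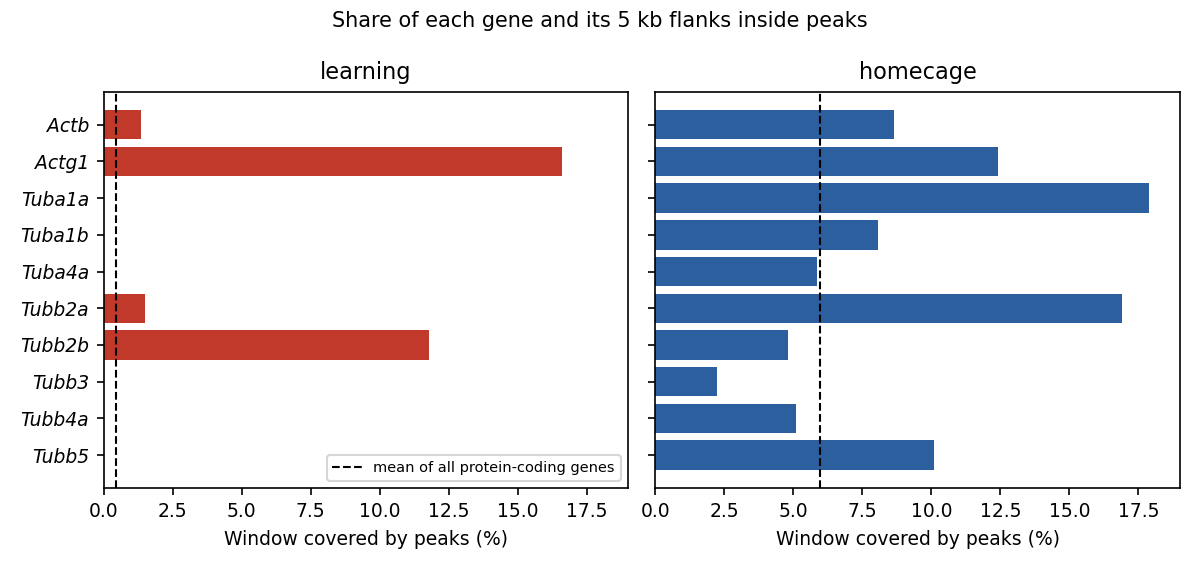
Percent of each gene's window (gene and 5 kb on either side) covered by learning peaks (left) and homecage peaks (right). Dashed lines are means over all protein-coding genes, 0.437% and 5.97%. Actg1 and Tubb2b have the highest learning coverage, and Tuba1a and Tubb2a the highest homecage coverage.

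The other genes of these families were counted in the same way. None of the 5 other actin genes, which include the muscle actins, had one (0%, 95% interval 0 to 52.2%), and 1 of the 12 other tubulin genes did (8.33%, 0.211 to 38.5%). That gene was Tubb4b, with a 196 bp peak 3392 bp outside the gene that overlapped a 211 bp homecage peak. Together with the 10 members, 5 of 27 actin and tubulin genes had a learning peak. Among protein-coding genes in the quartile range of length of the other tubulins, 23.7% had one, and for the other actins the share was 23.2%. Both intervals include these shares, but the lists were chosen with earlier results of these data known, so this is no test. All 17 of these other genes had a homecage peak, where the shares at those lengths were 91.0% for the tubulins and 89.5% for the actins. The 2 widest of each list lay at Tubb4b (1058 bp) and Tube1 (1028 bp) and at Actbl2 (659 bp) and Acta2 (589 bp), all outside the genes.

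Genes whose products regulate the filaments are longer, with a median of 30841.5 bp for the actin and 52635.5 bp for the microtubule list against 4056.5 bp for the members, and their windows hold more sequence. Of 32 actin regulators (filament nucleators, severing, capping and bundling proteins), 17 had a learning peak (53.1%, 34.7 to 70.9%), against 30.7% of genes in the list's quartile range of length. For 34 microtubule regulators the count was 19 (55.9%, 37.9 to 72.8%), against 42.5%. The 2 widest learning peaks of each list lay in Map4 (985 bp) and Map2 (712 bp), which encode microtubule-binding proteins, and in Actn1 (720 bp), an actin cross-linker, and Dbn1 (630 bp), the drebrin gene of dendritic spines. A homecage peak overlapped those in Map4, Actn1 and Dbn1 but not that in Map2. Homecage peaks were present at 31 of 32 actin regulators (96.9%) and 31 of 34 microtubule regulators (91.2%), against 94.5% and 96.5% of genes at those lengths. The 2 widest of the actin list were in Limk2 (1416 bp) and Cap1 (1482 bp), and the 2 widest of the microtubule list in Dclk1 (1492 bp) and across an end of Mapre2 (1594 bp). The 4 genes without any peak, named after their values were seen, were Tbcb and the 3 genes on chromosome X, Tmsb4x, Dcx and Hdac6. Chromosome X as a whole had few peaks, with a homecage peak in the window of 14.7% and a learning peak in that of 0.518% of its 966 protein-coding genes. Intervals are exact Clopper-Pearson 95% intervals, which take genes as independent and reflect counting error alone. The learning interval of the actin regulators lay above 30.7%, and that of the microtubule regulators included 42.5%. The lists were chosen with earlier results of these data known, so the intervals do not test enrichment.

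**Figure D5:**
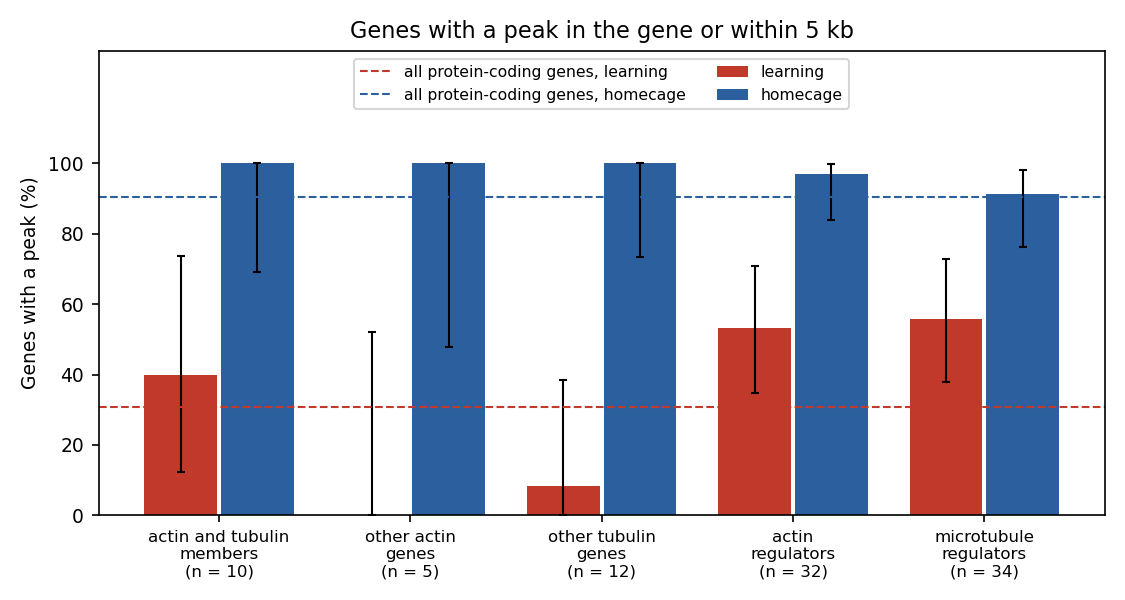
Percent of genes with a learning peak (red) or homecage peak (blue) in the gene or within 5 kb, for the 10 members and 4 lists of cytoskeleton genes. Error bars are exact Clopper-Pearson 95% intervals and dashed lines are all protein-coding genes, 30.9% and 90.5%. The member share in the learning list is 40%, with an interval from 12.2 to 73.8%. Members and lists were chosen with results of these data known, so the intervals are no test against the dashed lines.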

How the data were processed

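Pan-Kcr ChIP-seq peaks were analysed for 1 learning and 1 homecage library of 12 samples in the series. Chromatin was sonicated to fragments of 200 to 500 bp, per the labels' protocols. The submitters' processing notes name Trimmomatic, BWA, MACS2 and build mm10, without versions or settings. Each deposited file holds 4 columns, the chromosome, start, end and name of every peak, and the names state broad peaks called at a p-value of 0.01 by the authors. Use of the input, read filters and depth are not given in the sources used here, and the files carry no score or count, so peaks are described by position and width in bp only.

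Peaks on chromosomes 1 to 19, X and Y were joined to RefSeq GRCm38.p6 gene positions (the assembly of mm10), and positions are printed 1-based. The gene table holds no exons, so exonic and intronic positions are not given. Starts and promoter sequences came from RefSeq's GRCm38.p6 promoter table. Members and lists were chosen with earlier results of these data known. All 10 members are named, with the genes of the 2 widest peaks per library in each of 4 lists of other cytoskeleton genes (83 genes, all matched) and neighbours sharing a peak. No test was made across conditions. Overlap functions were tested on simulated peaks. Alternatives were windows of 0, 1 and 10 kb, peaks of at least 500 bp, peak centres, merging within 1 kb, stricter overlap and other backgrounds. The scripts ran in Python 3.11.15 with scipy 1.17.1 for intervals, pandas 2.3.3 and numpy 2.4.6 for joins, and matplotlib 3.10.9 for plots.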

Additional observations from a re-analysis of the deposited data

How the results depend on the processing

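No paired analysis was possible because learning and homecage are single ChIP libraries, and neither could be left out. Among 49 alternative values, 31 lay inside the exact interval of the reported value (for counts, 1.5 times) and 18 lay outside. With peaks of at least 500 bp, the members' learning peaks fell from 6 to 2 (Actg1 and Tubb2b) and their homecage peaks from 28 to 10. Peaks of this width made up 15.6% of the learning list and 24.8% of the homecage list. The homecage count was 13 in gene bodies alone and 16 with 1 kb windows. The learning count at members stayed between 4 and 7 under the other window, centre and merging rules. At Tubb2b, gene bodies and 1 kb windows left 1 learning and 1 homecage peak. Merging within 1 kb joined the 2 learning peaks outside Tubb2b into 1. All 10 members had a homecage peak, 9.54 percentage points above all protein-coding genes. Because every member had a peak, the interval of this difference ended at 9.54 points, and any larger difference counted as outside. This difference became 23.1 points in gene bodies, 18.3 with 1 kb windows, 9.78 by peak centres, 12.3 against genes of the members' length and 15.7 with the 500 bp minimum, where 8 members had a peak. It was smaller against autosomal genes, at 5.02 points, and with 10 kb windows, at 6.22 points. The 1 other tubulin gene with a learning peak became 0 with 1 kb windows and 0 with the 500 bp minimum. With that minimum, 2 of 32 actin regulators and 4 of 34 microtubule regulators had a learning peak, against 7.25% of all protein-coding genes. A homecage peak of that width was left at 2 of 5 other actin and 6 of 12 other tubulin genes, against 64.3%. Shares for genes of similar length were not computed at this minimum. Other actin genes with a homecage peak were 2 of 5 with 1 kb windows, against 81.7% of all protein-coding genes. Widening the start window to 1 kb raised the members with a learning peak from 1 to 2 and with a homecage peak from 3 to 7. Depth is unknown, so a missing peak is not a missing mark.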
